A study of Mus musculus with 12 samples.

Results

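The cytosolic ribosome of mouse cells is built from ribosomal RNA and a set of ribosomal proteins, and the mRNAs of these proteins were followed here in spheroids of NMuMG cells. NMuMG is an epithelial line derived from normal mouse mammary gland. The members were chosen by gene symbol: Rpl or Rps with a number and a short suffix, and the stalk genes Rplp0 to Rplp2. This gave 61 genes of the 18138 symbols in the table, 35 of the large and 26 of the small subunit, measured by 79 of its 25697 probes. Ribosomal pseudogenes and the mitochondrial ribosome fall outside the rule.

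Spheroids were seeded at 5000 cells per well on Matrigel, a basement membrane extract, grown for 6 days and refed on day 4. They were then given 50 ng/mL TGFB1, 250 ng/mL GDF11 or serum-free medium alone for 4 h. Each of the 3 groups held 4 biological replicates, each the RNA of 2 pooled wells on 1 single-colour Illumina array, and the doses of the ligands differed. Both proteins belong to the TGF-beta family of signalling ligands and act through the transcription factors SMAD2 and SMAD3. All comparisons share this 1 cell line, and the number of arrays limits the precision of every value.

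Ribosomal protein mRNAs are among the most abundant messages of a cell. Most begin with a run of C and T bases, the terminal oligopyrimidine motif, through which mTORC1 and the RNA-binding protein LARP1 control how well the message is translated. An mRNA level therefore need not follow the amount of protein made. Several ribosomal proteins also act outside the ribosome, for instance by binding MDM2, the inhibitor of p53.

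The sequences around the RefSeq transcription start (GRCm38.p6, 45 bases before the start to 15 bases from it) show where runs of C and T lie near the annotated start. They are given for the 3 genes that the results below turn on (Rpl22, Rps15a and Rpl14), for Rpl22l1, the paralog of Rpl22, for Rps3a1, whose signal moved most between arrays, and for Rps6, the substrate of S6 kinase. Capitals mark the longest run of C and T in each.
Rpl22, chr4:152325681-152325740, plus strand: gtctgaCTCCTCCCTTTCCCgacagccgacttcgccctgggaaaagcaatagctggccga
Rps15a, chr7:118116133-118116192, minus strand: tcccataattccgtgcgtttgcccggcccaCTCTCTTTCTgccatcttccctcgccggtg
Rpl14, chr9:120571472-120571531, plus strand: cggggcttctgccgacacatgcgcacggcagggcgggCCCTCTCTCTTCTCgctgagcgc
Rpl22l1, chr3:28805463-28805522, plus strand: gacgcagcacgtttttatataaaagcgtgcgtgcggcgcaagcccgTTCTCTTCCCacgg
Rps3a1, chr3:86142654-86142713, minus strand: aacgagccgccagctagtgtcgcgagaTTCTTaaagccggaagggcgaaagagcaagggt
Rps6, chr4:86857353-86857412, minus strand: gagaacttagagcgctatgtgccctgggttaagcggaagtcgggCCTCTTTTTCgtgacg
Rpl14 and Rpl22 held the longest runs of these, 14 bases each, and Rps3a1 the shortest, 5 bases. The marked run lies wholly before the annotated start in Rpl22, Rps15a and Rps3a1, and is then no part of an mRNA that begins there. It crosses the start in Rpl14 and Rps6 and lies after it in Rpl22l1. Rps15a also holds a shorter, unmarked run of C and T that crosses the annotated start. A run of at least 8 in this window, on the strand of the gene, was counted at any listed start of a gene. It was found in 59.2% of the 49 members, and 27.8% of all 27025 genes, with a RefSeq start sequence. CCGGAAG, the core of ETS family sites, was searched on both strands of the 300 bases from 250 before the start to 50 after it. It occurred in 42.9% of these 49 members and in 9.9% of all genes. A match is a description of the letters in the window and no evidence of use.

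Before any comparison of groups, the arrays differed in overall signal. Mean raw signal, in scanner units, lay between 255 and 310 on 8 arrays, called bright here (TGFB1 1 to 4, GDF11 2, 3 and 4, serum-free 3). It lay between 149 and 165 on the other 4, called dim (GDF11 1, serum-free 1, 2 and 4). No TGFB1 array was dim, so each comparison was made with the groups alone, with a term for bright against dim arrays (the brightness term), and on the bright arrays alone, where serum-free medium has 1 array. Signal passed a detection p of 0.05 on 41.2% to 49.6% of probes per array. Of the luminal epithelial markers, Krt8, Krt18, Krt19, Cdh1 and Elf3 were detected on all 12 arrays, and Cldn3 on none. No basal, fibroblast, endothelial, leukocyte or adipocyte marker was detected on all 12. Of 5 basal markers with a probe, 2 were detected on at least 4 arrays, and Krt5, Myh11 and Trp63 on none. No fibroblast, endothelial, leukocyte or adipocyte marker was detected on as many as 4.

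Most members were strongly expressed. Of the 79 probes, 62 were detected on all 12 arrays, and 55 of the 61 genes had a probe that was kept (detection p under 0.05 on at least 4 arrays). That probe was detected on all 12 arrays for 53 of them; the others were Rpl14 and Rps4l (Rps4y2 on the array), and Rps4l was detected on 2 TGFB1, 0 GDF11 and 2 serum-free arrays. Rplp2, Rpl3l, Rpl39l, Rpl6, Rpl17 and Rps23 had none, with raw signals of 76.0 to 100.5, and were not tested. Rplp2 is a stalk protein, and Rpl3l and Rpl39l are paralogs known for expression in striated muscle and testis. The table held no probe for Rpl5, Rpl11, Rps27, Rpl7, Rpl10 or Rpl10l. Of the 100 brightest probes of each array, 24 to 32 were members.

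Ribosomal protein signal divided the arrays by brightness. Bright and dim were set by the mean raw signal of these same arrays, members included. Higher raw member signal on bright arrays is therefore in part given by the definition. In these bulk samples cell number and RNA per cell at harvest cannot be told apart, and the labels give neither. Whether either differed between bright and dim arrays was not tested. The member probes took 5.79% to 5.92% of all raw signal on the TGFB1 arrays, and 4.36% (dim), 5.97%, 5.77% and 5.98% on GDF11 arrays 1 to 4. On the serum-free arrays 1 to 4 they took 4.30%, 4.62%, 6.04% (bright) and 4.56%. All bright arrays lay above all dim arrays in this raw share, whatever the medium. The raw signal includes background: the untested members read 76.0 to 100.5 units. Array means were 149 to 165 on the dim arrays and 255 to 310 on the bright ones. The part of background in the division of the shares was not tested. Within serum-free medium the bright array had 2.20 times the raw signal of the mean dim array at the median member probe (range 1.13 to 9.64, 72 probes), against 1.52 at the median of all 12680 detected probes. For probes detected on all 12 arrays these medians were 2.45 (62 member probes) and 1.75 (8682 probes). Within GDF11 the medians over the 72 and 12680 probes were 2.41 and 1.56.

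The members spread widely around that median. Rplp1, an acidic protein of the stalk that recruits elongation factors, had raw signals of 18324, 17703, 18244 and 16592 with TGFB1, 14007, 19031, 18492 and 16411 with GDF11, and 13549, 15540, 18168 and 15507 in serum-free medium. The dim arrays lay below the bright ones, over a narrow range. Rps3a1, a small-subunit protein that the array lists as Rps3a, had 2948, 2826, 2715 and 2579 with TGFB1, 192, 2468, 2855 and 2128 with GDF11, and 211, 282, 2457 and 271 in serum-free medium. Every dim array lay far below every bright one, and the bright serum-free array lay within the range of the bright GDF11 arrays. The same division held for Rpl36a, of the large subunit, with 8226, 7613, 8144 and 7467 with TGFB1, 1005, 6918, 7876 and 6552 with GDF11, and 1055, 1098, 7142 and 1092 in serum-free medium. Rps6, the S6 kinase substrate, had 3988, 3854, 3637 and 3395 with TGFB1, 1707, 3384, 3611 and 3013 with GDF11, and 1517, 1940, 3598 and 1840 in serum-free medium. It divided the arrays the same way, over a narrower range. The median bead standard error of the member probes was 4.21% of the signal.

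**Figure D1:**
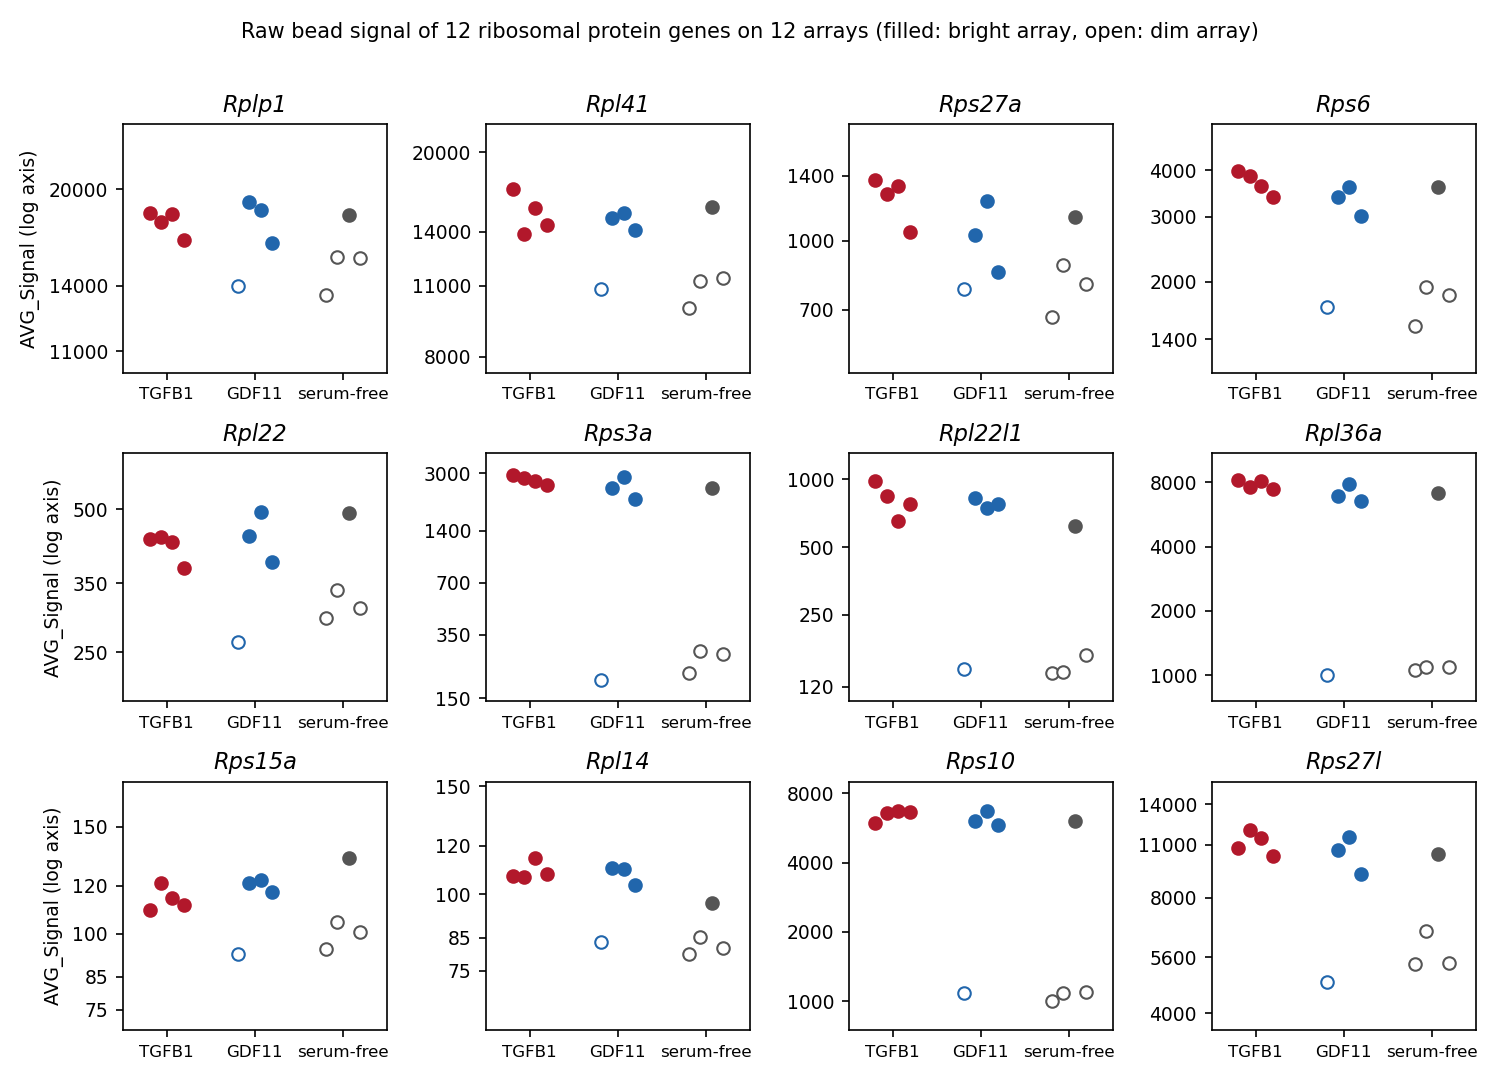
Raw bead signal (AVG_Signal, scanner units, log axis) of 12 ribosomal protein genes on each array, TGFB1, GDF11 and serum-free from left to right, replicates 1 to 4 within each. Filled points are bright arrays and open points dim arrays. The open points lie below all filled points in every panel but that of Rps27a, and Rps3a and Rpl36a show wide gaps.

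Quantile normalization did not remove this division. For bright against dim arrays, with group as a further term, limma called 40 of the 55 tested members (Benjamini-Hochberg adjusted p under 0.05), or 72.7%, beside 49.2% of all 9134 genes. Of these, 25 were higher on bright arrays (background 22.7%) and 15 lower (background 26.5%). The median shift of the members was 0.11 on the log2 scale, against -0.02 for all genes, and the median absolute shift 0.46 against 0.35. The division crossed both subunits, with 13 higher and 6 lower of 30 large-subunit genes and 12 higher and 9 lower of 25 small-subunit genes. Rps3a1 was 6.10-fold higher on bright arrays (log2 shift 2.61 ± 0.12, SE, adjusted p = 6.12e-08) and Rpl36a 3.00-fold (1.58 ± 0.10, adjusted p = 6.41e-07). Rpl22l1 (1.54), Rpl29 (1.38), Rps10 (1.33), Rps25 (1.27), Rps16 (1.16), Rpl13a (1.00, a protein of the GAIT complex that silences translation of some mRNAs), Rpl39 (0.70), Rpl3 (0.56) and Rps3 (0.54, also a DNA repair factor) were higher as well. Lowest on bright arrays was Rps27a, made as a fusion with ubiquitin, at -0.80 ± 0.11 (adjusted p = 7.14e-05). Rplp0, the stalk's anchor (-0.67), Rpl21 (-0.56), Rpl22 (-0.54), Rps15a (-0.46), Rps9 (-0.44), Rps2 (-0.43), Rps27l, a p53-inducible paralog of Rps27 (-0.28), and Rps6 (-0.24) were lower too. Rplp1 (-0.21, adjusted p = 0.0644), Rpl7l1 (-0.27, 0.133), Rpl23, which binds MDM2 (-0.12, 0.341), Rpl35 (-0.07, 0.593) and Rpl14 (0.12, 0.385) did not pass. What divides bright from dim arrays was not tested, and the labels name no batch. The split was drawn from these same data, so its p-values describe the 2 sets and are no independent test.

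**Figure D2:**
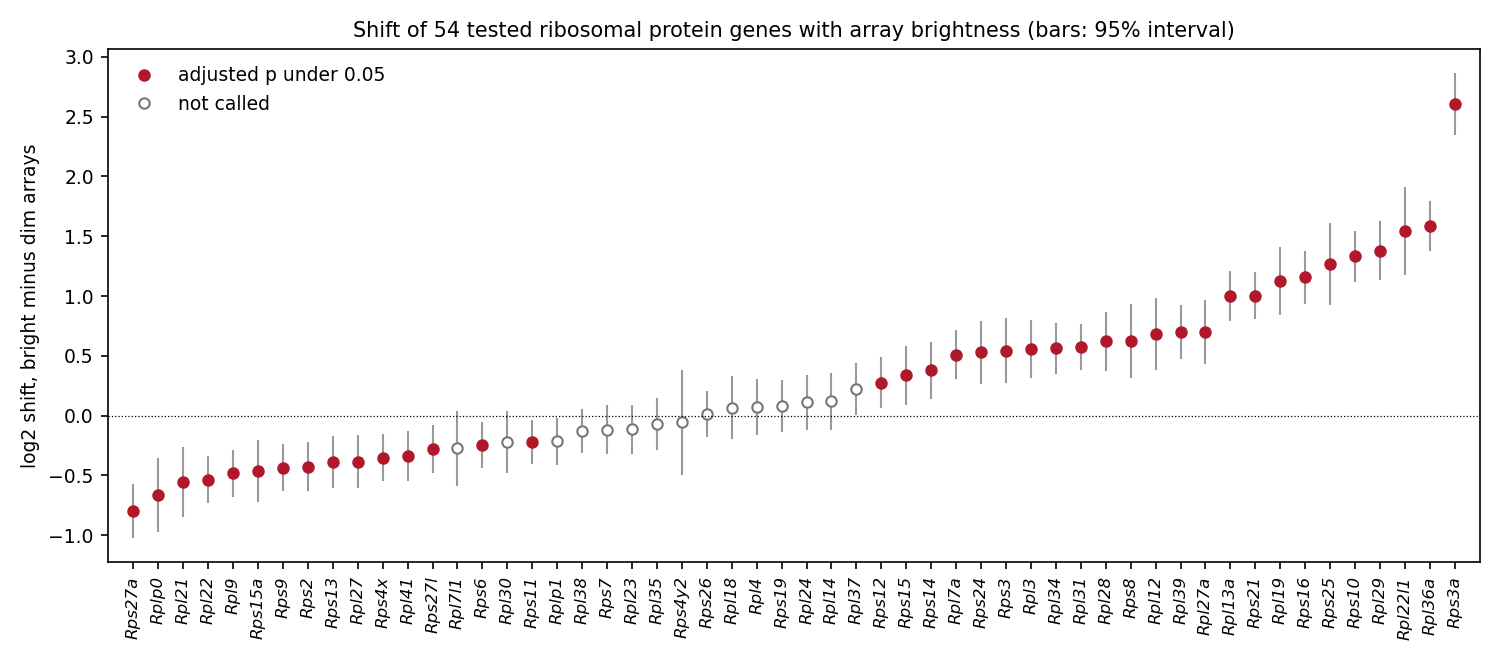
Log2 shift of 54 tested ribosomal protein genes between bright and dim arrays, from the model with group and brightness, with its 95% interval. Genes run from Rps27a (-0.80) to Rps3a (2.61); filled points passed an adjusted p of 0.05, and 24 of the 39 filled points lie above 0.

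Probes of one gene did not always shift together. Among the 8 genes with at least 2 probes detected on all 12 arrays, the 95% intervals of at least 1 pair did not overlap for 6. For Rpl31 the probes shifted by -0.48 (interval -0.70 to -0.26) and 0.58 (0.38 to 0.78) between bright and dim arrays. For Rpl29 they shifted by -0.39 (-0.72 to -0.06) and 1.38 (1.12 to 1.63), the first of them close to background with raw signals of 87.3 to 115.6. The probes of Rpl23 shifted by -0.29, -0.12 and 0.72, those of Rps3 by 0.54 and 1.24, those of Rps9 by -0.44 and 0.23, and those of Rplp0 by -0.67 and 0.15. The value of a gene in the comparisons is that of its brightest probe.

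**Figure D3:**
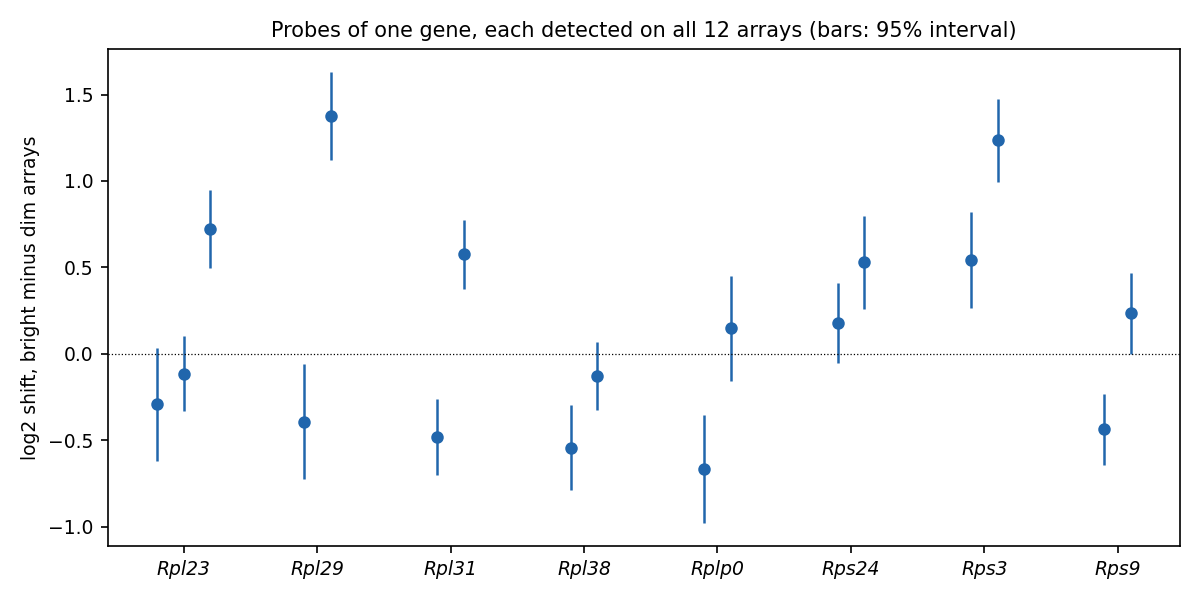
Log2 shift between bright and dim arrays for each probe of the 8 ribosomal protein genes with several probes detected on all 12 arrays, with 95% intervals. The intervals of Rpl29 and Rpl31 lie on opposite sides of 0, and those of Rpl38 and Rps24 overlap.

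The comparison of TGFB1 with serum-free medium asked which mRNAs the ligand changed within 4 h. With the groups alone, 17 of the 55 members were called, 30.9%, beside 34.4% of all genes: 13 were higher (background 15.7%) and 4 lower (background 18.7%). Of the 17, 16 were also called for bright against dim arrays and in the same direction, and only Rpl14 was not. With the brightness term 3 were called, 5.45% beside 15.9% of all genes, and on the bright arrays alone 3, beside 17.1%. Rpl22 and Rps15a were lower in all 3 fits. The third was Rpl14, which was higher, but it was kept for testing only through the ligand arrays, where it is high, so its call is given as a description. Of all genes, 7.93% were higher and as many lower with the term, and 8.63% higher and 8.43% lower on bright arrays alone. Leaving out 1 array moved the count with the groups alone to between 3 and 35 (35 without serum-free 3, 31 without GDF11 1), and that with the term to 0 without either of these arrays. Without TGFB1 1 or TGFB1 4 the count with the term was 2, 1 higher and 1 lower (13.4% and 13.5% of all genes called). Of all genes, 48.8% were called with the groups alone without serum-free 3 and 45.8% without GDF11 1, beside 63.6% and 56.4% of the members. The split of the 17 also moved with the scaling: the authors' processed values gave 8 higher and 14 lower (16.5% and 14.7% of all genes), and cyclic loess 14 and 9 (16.6% and 17.8% of all genes). Median scaling gave 12 and 14 (12% and 36.1% of all genes), and no background correction 11 and 9 (14.5% and 18.5% of all genes). The share of members called with the term is below that of all genes, and their median absolute change was 0.05 against 0.20 for all genes.

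Rpl22, a large-subunit protein without which mice are viable and which also binds RNA outside the ribosome, was the best measured of the 3. Its raw signal was 434, 438, 426 and 376 with TGFB1, 263 (dim), 440, 493 and 388 with GDF11, and 296, 338, 492 and 311 in serum-free medium. Raw values overlap because 3 serum-free arrays are dim, but the bright serum-free array lay above all TGFB1 arrays. After normalization the log2 values were 8.07, 8.09, 8.07 and 7.93 with TGFB1, 8.75, 8.25, 8.24 and 8.24 with GDF11, and 9.08, 9.03, 8.45 and 8.95 in serum-free medium. No TGFB1 array reached the lowest serum-free array. The log2 change was -0.84 ± 0.16 (SE, n = 4 per group, limma adjusted p = 0.00185), -0.44 ± 0.10 with the brightness term (adjusted p = 0.0101), and -0.41 ± 0.12 on bright arrays alone (adjusted p = 0.0371), where it rests on 1 serum-free array.

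Rps15a, a small-subunit protein, lay near background. Its raw signal was 110, 121, 115 and 111 with TGFB1, 92 (dim), 121, 122 and 117 with GDF11, and 94, 105, 133 (bright) and 101 in serum-free medium, and it was detected on all 12 arrays. After normalization it was at 4.99, 5.37, 5.13 and 5.09 with TGFB1, 5.82, 5.30, 5.20 and 5.48 with GDF11, and 5.96, 6.23, 5.67 and 6.12 in serum-free medium. TGFB1 and serum-free arrays did not overlap on that scale. The log2 change was -0.85 ± 0.16 (limma adjusted p = 0.00181), -0.50 ± 0.14 with the term (adjusted p = 0.0236), and -0.53 ± 0.16 on bright arrays alone (adjusted p = 0.0353). Its size depended on the background: it was -0.19 in the authors' processed values, -0.29 with no background correction and -0.50 with an offset of 50, and passed in each.

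Rpl14, a large-subunit protein, lay at the edge of detection. Its raw signal was 107, 107, 114 and 108 with TGFB1, 84 (dim), 110, 110 and 103 with GDF11, and 80, 85, 97 (bright) and 82 in serum-free medium. It was detected on all TGFB1 and GDF11 arrays and on 1 of 4 serum-free arrays, so it was kept for testing only through the ligand arrays, where it is high. The 1 was the bright array. Normalized values were 4.91, 4.93, 5.13 and 4.98 with TGFB1, 4.83, 4.96, 4.84 and 5.02 with GDF11, and 4.25, 4.58, 4.52 and 4.34 in serum-free medium, without overlap between the ligands and serum-free medium. The log2 change with TGFB1 was 0.56 ± 0.11 (limma adjusted p = 0.00291) against a serum-free level that was mostly not above background. With the undetected serum-free values raised to the lowest detected value of their array, the difference was 0.34 for TGFB1 and 0.27 for GDF11. Because the gene was kept through the ligand arrays, its values and calls are a description and no test of a change. The fitted change was 0.47 ± 0.13 with the term and 0.47 on bright arrays alone. It was 0.11 in the authors' processed values, 0.14 with no background correction, 0.24 with an offset of 50 and 0.33 with cyclic loess. Under median scaling in place of quantile normalization its sign turned (-0.29, adjusted p = 0.329), while the median of all genes moved by -0.30.

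The other members called with the groups alone did not pass with the term. Rps3a1 was at 1.80 ± 0.63 with the groups alone (adjusted p = 0.0409) and at -0.16 with the term (adjusted p = 0.514). Rpl22l1, which Rpl22 is known to repress in mouse cells, was at 1.31 ± 0.40 (adjusted p = 0.0228) and 0.16 ± 0.20 (adjusted p = 0.676). Its raw signal was 978, 838, 655 and 778 with TGFB1, 145 (dim), 823, 744 and 776 with GDF11, and 138, 140, 618 (bright) and 166 in serum-free medium. The bright serum-free array lay below all bright ligand arrays and far above the dim ones, and the 95% interval with the term (-0.27 to 0.58) spans 0. Rpl36a (1.23), Rps10 (1.04), Rpl29 (1.01), Rps16 (0.82), Rpl39 (0.57), Rpl3 (0.51), and Rps21, Rpl12 and Rpl31 (0.50 to 0.74) were higher with the groups alone, and Rps2 (-0.43) and Rps9 (-0.43) lower. With the term none of these passed, and the genes given with a value of their own lay between -0.11 and 0.09.

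Among the other fixed genes, none was called with TGFB1 by its brightest probe in any of the 3 fits. With each probe as a row and the groups alone, another probe of Rplp0, Rps3, Rpl23 and Rpl7l1 passed. Their log2 changes were 0.52, 1.04, 0.56 and 0.70 (limma adjusted p from 0.0148 to 0.047). The brightest probes of Rplp0, Rpl23 and Rpl7l1 lay below 0 in that fit. None of the other probes passed with the term (adjusted p from 0.128 to 0.944). With the brightness term Rps27a was at 0.09 ± 0.12, Rps6 at -0.04 ± 0.10, Rplp1 at -0.02 ± 0.10, Rplp0 at 0.23 ± 0.16, Rpl23 at -0.04 ± 0.11, Rps3 at 0.06 ± 0.14, Rpl13a at -0.17 ± 0.11, Rps27l at -0.05 ± 0.11 and Rpl7l1 at -0.07 ± 0.17. For Rps6 the 95% interval ran from -0.26 to 0.18. A bound for most members depended on the term. With it, the 95% interval lay within 1.5-fold in either direction for 49 of 55 genes, and with the groups alone for 21.

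**Figure D4:**
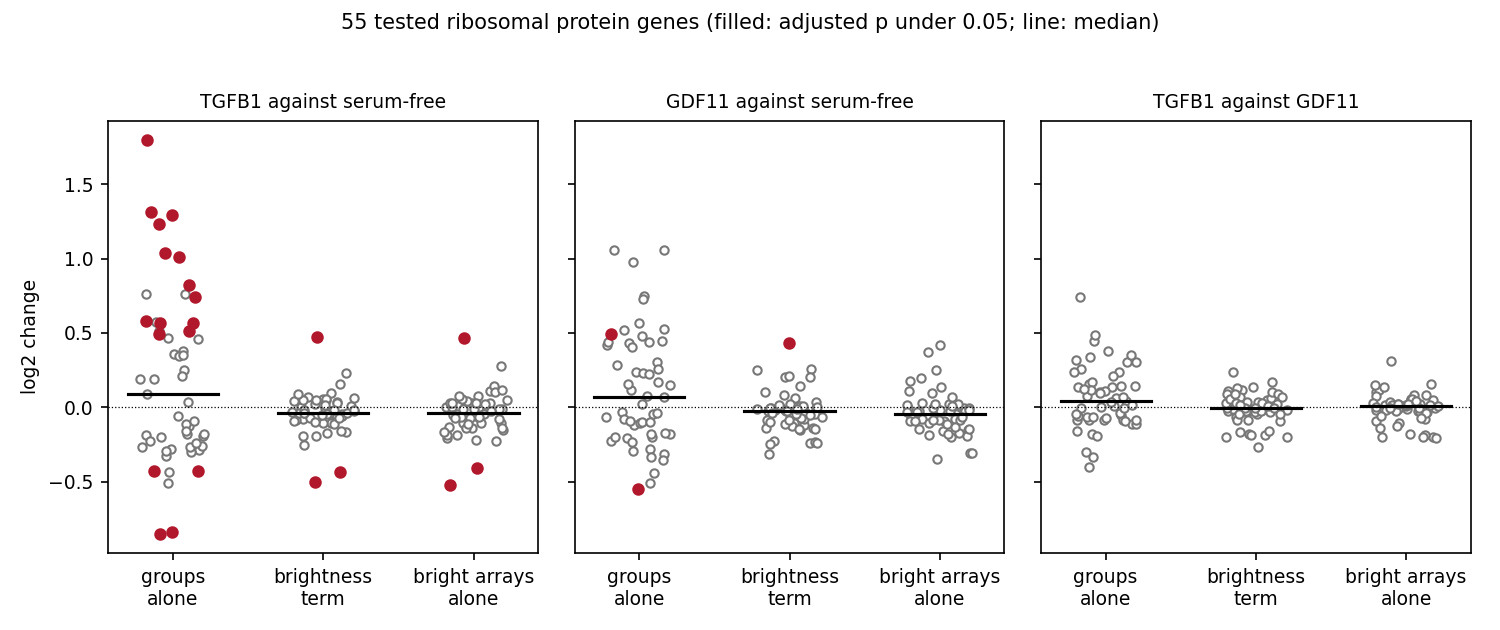
Log2 change of each of the 55 tested ribosomal protein genes (y axis) in the 3 comparisons, with the groups alone, with the brightness term and on bright arrays alone (x axis). Filled points passed an adjusted p of 0.05 and lines are medians; the TGFB1 panel holds 17, 3 and 3 filled points and the values narrow once brightness is in the model.

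The comparison of GDF11 with serum-free medium shares the serum-free arrays with the one above. With the groups alone 2 members were called, 3.64% beside 9.93% of all genes: Rpl14 at 0.49 ± 0.11 (background 4.78% higher) and Rps15a at -0.55 ± 0.16 (background 5.15% lower), with limma adjusted p of 0.0169 and 0.0478. Without GDF11 1 the count was 27, or 49.1% beside 36.9% of all genes, without serum-free 3 it was 21, or 38.2% beside 31% of all genes, and without GDF11 2 or 4 or serum-free 1 or 4 it was 0. With the term 1 was called (background 10.4%, 5.62% higher), and none without GDF11 1. It was Rpl14, at 0.43 ± 0.11 (adjusted p = 0.0233), whose serum-free level was detected on 1 of 4 arrays. Rps15a was at -0.32 ± 0.12 with the term (adjusted p = 0.125). Without serum-free 3 the fit with the term gave 0 members higher and 1 lower (5.79% and 4.63% of all genes). Rpl14 was thus not called higher there. On bright arrays alone limma called none (background 6.16%), with 2 members at an unadjusted p under 0.05, and Rpl14 was at 0.42 ± 0.14 (adjusted p = 0.101). Rpl22 was at -0.51 ± 0.16 (adjusted p = 0.0616) and at -0.24 ± 0.09 with the term (adjusted p = 0.122). Between the 1 dim GDF11 array and the 3 dim serum-free arrays limma called no member (background 0.0657%), and none had an unadjusted p under 0.05.

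High values with GDF11 and the groups alone were those of Rps3a1 (1.06), Rpl22l1 (0.98), Rpl36a (0.75) and Rps10 (0.73), and the lowest after Rps15a and Rpl22 were Rps27a (-0.44), Rps2 (-0.36) and Rplp0 (-0.33). None of these passed (adjusted p from 0.122 to 0.291). With the term they lay at -0.25, 0.20, -0.04, 0.06, -0.05, -0.14 and 0.00. The interval lay within 1.5-fold for 53 of 55 members with the term, and for 27 with the groups alone. The median member change was -0.03 and equal to that of all genes at 2 decimals, and the median absolute change was 0.08 against 0.17.

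Between the ligands, TGFB1 against GDF11, limma called no member with the groups alone (background 0.832%), with the term (2.51%) or on bright arrays alone (5.87%), where 1, 2 and 3 had an unadjusted p under 0.05. With the groups alone the values ran from -0.40 for Rpl21 to 0.74 for Rps3a1, and with the term from -0.27 for Rpl21 to 0.23 for Rplp0. Rpl22 was at -0.20 ± 0.08 with the term (adjusted p = 0.279) and Rps15a at -0.19 ± 0.11 (adjusted p = 0.516), so a difference between the ligands in these genes was not shown. With the term the 95% interval lay within 1.5-fold for all 55 tested members, and with the groups alone for 39. The doses differed, which cannot be told apart from the identity of the ligand.

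Other genes of the translation machinery were read from lists, by their counts. Of all genes tested, 15.7% were higher and 18.7% lower with TGFB1 and the groups alone, and 7.93% each way with the term. With GDF11 and the term 5.62% were higher and 4.82% lower, and 22.7% were higher and 26.5% lower on bright arrays than on dim ones. Of 17 tested elongation factors and other genes with terminal oligopyrimidine mRNAs, 5 were higher and 1 lower with TGFB1 and the groups alone, and none in either direction with the term. For bright against dim arrays 9 were higher and 1 lower, with a median shift of 0.76, as for Eif3h, an initiation factor subunit (1.93 ± 0.17), Pabpc1, the poly(A)-binding protein (1.16 ± 0.11), and Naca, of the nascent chain complex (1.04 ± 0.10). On bright arrays alone 1 was called with TGFB1, the small-subunit scaffold Rack1 (0.50, limma adjusted p = 0.0361). Of 26 initiation factors, Eif6, which keeps the subunits apart, was called with the term at 0.49 ± 0.12 with TGFB1 (limma adjusted p = 0.0144) and 0.38 ± 0.11 with GDF11 (adjusted p = 0.0404). It missed the threshold when bright arrays were read alone (adjusted p = 0.0962 and 0.525). Of 44 ribosome biogenesis genes, 10 were higher and 6 lower with TGFB1 and the groups alone, none higher and 2 lower with the term. Rrp1b, a nucleolar protein of rRNA processing, was lower with the term, at -0.55 ± 0.13 with TGFB1 (limma adjusted p = 0.0092) and -0.45 ± 0.11 with GDF11 (adjusted p = 0.0205). On bright arrays alone it passed with TGFB1 (-0.59, adjusted p = 0.0119) and not with GDF11 (-0.50, adjusted p = 0.0678). Mrto4, an assembly factor of the stalk, was lower with TGFB1 and the term (-0.47 ± 0.12, adjusted p = 0.0151) and on bright arrays alone (-0.52, adjusted p = 0.023).

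Of 11 RNA polymerase I genes, Cd3eap, a subunit of the polymerase, was the member called with the term, at 0.91 ± 0.13 with TGFB1 (limma adjusted p = 0.000279) and 0.62 ± 0.11 with GDF11 (adjusted p = 0.00298). It was also called on bright arrays alone for both ligands (0.99 and 0.73), but with the groups alone it was at 0.11 with TGFB1 (adjusted p = 0.788) and 0.09 with GDF11 (adjusted p = 0.841). It was lower on bright arrays than on dim ones (-1.07 ± 0.11). Of 11 genes of mTORC1 and its control of these mRNAs, Ddit4, an inhibitor of mTORC1, rose by 1.87 ± 0.12 with TGFB1 (adjusted p = 3.16e-07) and 1.67 ± 0.11 with GDF11 (adjusted p = 4.75e-07). Mlst8, an mTOR subunit, was lower with the term, at -0.39 with TGFB1 and -0.36 with GDF11, but missed the threshold when bright arrays were read alone (adjusted p = 0.112 and 0.264). Of 67 mitochondrial ribosomal protein genes, 7 were higher and 15 lower with TGFB1 and the groups alone. With the term none was higher and 6 were lower with TGFB1, and none higher and 4 lower with GDF11, where the shares lower lie near those of all genes. Mrpl50, of the large mitochondrial subunit, was the lowest of these, at -0.94 ± 0.11 with TGFB1 (adjusted p = 4.22e-05) and -0.68 ± 0.10 with GDF11 (adjusted p = 0.000388), and passed on bright arrays alone for both. On bright arrays alone 2 of the list were lower with TGFB1 and 1 with GDF11.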

How the data were processed

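Per the file headers, the deposited non-normalized table holds 4 values per probe and array: a linear intensity averaged over beads, without background subtraction, the standard error of the beads (also an intensity), a detection p-value and another measure, the number of beads. A second deposited table holds the authors' processed values, which look like log2 values. The submitters' processing notes name lumi, while its version and role were not stated, and the log base is not given in the sources used here. Array columns were assigned by their sample names.

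Tests used R 4.3.3 with limma 3.58.1, and figures Python 3.11.15 with matplotlib 3.10.9. Intensities went through neqc (background from the detection p-values, offset 16, quantile normalization, log2). The offset shrinks changes of weakly expressed genes. A probe was kept when at least 4 of the 12 arrays had a detection p below 0.05 (12680 probes), and the brightest probe stood for each of 9134 genes. lmFit and eBayes were fitted to all genes and 12 arrays with 1 mean per group, and again with a term for arrays with a mean signal above 200 or on those arrays alone. Benjamini-Hochberg adjustment ran over all genes, with calls under 0.05. P-values measure the spread between the labelled biological replicates. On bright arrays alone serum-free medium has 1 array, so no serum-free spread enters and the p-values rest on the ligand arrays. The dim arrays hold 1 GDF11 array, so the spread there is that of serum-free medium. Replicate numbers did not pair the arrays (3 of 12 same-number pairs correlated above 0.1).

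RefSeq synonyms updated 2 of 61 member symbols (Rps3a to Rps3a1, Rps4y2 to Rps4l). The members, the lists and the tests were chosen with earlier results of these data known. Named genes were the 5 highest and 5 lowest changes per comparison, members called with and without the term, and fixed stalk, signalling and paralog genes. Rpl12, Rpl31, Rpl38, Rps21, Rps24 and the genes named from other lists were chosen after their values were seen. A member that this rule names is not reported here, and counts over all members include it. Tried as alternatives were other scalings, offsets and filters, the authors' values, each array left out and a replicate block.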

Additional observations from a re-analysis of the deposited data

Results flagged for a closer look

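Replicates of 25 named members were checked for 1 array standing apart from the other 3 of its group, by the gap to the nearest array over the range of the group, against Dixon's critical value for 4 arrays. Of 75 groups, 20 passed. The genes share the same arrays, and some were named for the size of their changes in these data. The count therefore cannot be set against a rate for independent groups. The array apart was GDF11 1, the dim one of its group, for 10 genes: Rps3a1 (0.984), Rpl22 (0.989), Rpl36a (0.965), Rps10 (0.919), Rpl21 (0.903), Rpl29 (0.897), Rpl39 (0.895), Rps16 (0.891), Rpl13a (0.879) and Rpl23 (0.848). It was serum-free 3, the bright one of its group, for 8: Rplp1 (1.000), Rps3a1 (0.887), Rps10 (0.886), Rpl13a (0.883), Rps9 (0.873), Rps16 (0.865), Rpl36a (0.863) and Rps27a (0.834). For Rplp1 the dim serum-free arrays share 1 value, since it was the brightest probe on each and quantile normalization gives that rank a fixed value. The others were TGFB1 1 for Rps3a1 (0.891) and TGFB1 4 for Rpl22 (0.833), each within a narrow range of values. The part of brightness in these gaps was not tested beyond the fits with its term.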

How the results depend on the processing

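The counts of called members depended on brightness and on single arrays. For GDF11 against serum-free medium the count of 2 became 0 on bright arrays alone, on dim arrays alone, with cyclic loess and with median scaling, and 1 with the brightness term, with a replicate block, with each probe as a row, and with each probe and the term. Leaving out 1 array gave 0 to 27, with 27 without GDF11 1 and 21 without serum-free 3. For TGFB1 the count of 17 became 3 with the term, on bright arrays alone, and with each probe and the term, 5 with no detection filter and 26 with median scaling. Leaving out 1 array gave 0 to 35 over fits with and without the term, with 35 without serum-free 3 and 31 without GDF11 1. With the term it gave 0 without either of these arrays, and 0 to 1 for GDF11. The 13 higher and 4 lower calls for TGFB1 became 8 and 14 with the authors' values, 14 and 9 with cyclic loess, 12 and 14 with median scaling and 11 and 9 with no background correction. TGFB1 against GDF11 gave 0 under all alternatives run, and bright against dim arrays 27 to 43 of 55 genes, or 47 of 72 with each probe as a row (22 of 72 for TGFB1). The replicate block, from numbers that do not pair the arrays (3 of 12 same-number pairs correlated above 0.1, and 4 arrays were closest to their own number), gave 1 call for GDF11, 21 for TGFB1, 0 between ligands and 27 for bright against dim.

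Among named genes called in either of the fits compared, signs turned for 3 values: Rpl14 under median scaling (-0.077 for GDF11, -0.29 for TGFB1), and Rps3a1 with the term (-0.16, TGFB1). Of the 1342 values of named genes under alternatives, a further 48, called in neither fit, turned too, 14 with the term and 13 on bright arrays alone. The cause was not tested. Rpl22 and Rps15a kept their TGFB1 call under each alternative that changed a single choice, from -0.98 to -0.41 and from -1.09 to -0.19 on the log2 scale. The authors' values gave -0.61 and -0.19. With the term and 1 array left out as well, both calls were lost without serum-free 3 or GDF11 1. Only 1 member was then called lower without TGFB1 1 or without TGFB1 4. The Rpl14 call for GDF11 was lost with the authors' values, no background correction, an offset of 50, cyclic loess and median scaling, on bright arrays alone, and without GDF11 2 or 4 or serum-free 1 or 4. With the term the Rpl14 call for GDF11 was lost without GDF11 1 or serum-free 3. Signal near background limits Rpl14 and Rps15a, and 1 dim GDF11 and 1 bright serum-free array limit all readings within a brightness set. The interaction of GDF11 with brightness gave 0 calls in limma of 9134 genes (613 at an unadjusted p under 0.05) and 0 among members.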
